A study of Mus musculus with 50 samples.

Results

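The genes described are 8 noncoding transcripts of mouse spinal motor neurons: Malat1, Neat1, Meg3, Rian, Mirg, Miat, Snhg11 and Gm26917, out of 55385 genes in the count tables. They were chosen by symbol for the share of the libraries that they take, with results of these data already known, so the shares below are a description and carry no test. The study followed motor neurons from their specification to old age in the animal, and in a stem cell-derived culture, with RNA-seq and with ATAC-seq, in which a transposase cuts accessible DNA. RNA was measured in 28 libraries. The 3 libraries of E10.5 (E stands for embryonic day) came from whole cells with high GFP, sorted from C57BL/6 HB9-GFP embryos, in which the promoter of the motor neuron factor Hb9 drives GFP. All later tissue libraries came from nuclei that were pulled down through a tagged envelope protein in C57BL/6 Chat-Cre;SUN1-GFP-3xMYC mice, in which the tag follows Chat, so that all cholinergic cells of the cord carry it: 2 libraries at E13.5, 3 at postnatal day 4 (P4), 2 at P13, 3 at P21, 3 at P56 and 2 at 2 years (2yr), each from pooled animals. The culture libraries were nuclei of motor neurons made from stem cells of the same genotype, with 2 libraries at 0 days in vitro (DIV0), 2 at DIV7 and 3 at DIV28 after co-culture with cortical astrocytes, and 3 at DIV28 with 1 µM tetrodotoxin (TTX), a blocker of voltage-gated sodium channels, throughout. ATAC-seq was done in 22 libraries, 2 for each of these 11 groups. The study cites work in which Chat-Cre also labelled GABAergic and glutamatergic neurons of the adult cord. It found such cells not significantly represented at P56, where skeletal motor neurons prevailed over visceral motor neurons and cholinergic interneurons. For the RNA nuclei it gives a lower purity at E13.5 and P4 than at later ages. Tissue groups and untreated cultures received no TTX. The medium of the long-term co-cultures held added GDNF, BDNF, CNTF and IGF, and for a time uridine and fluorodeoxyuridine.

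Long noncoding RNAs are transcripts that act, where they act, as RNA. Malat1 stays in the nucleus at the speckles where splicing factors are stored, and Neat1, its neighbour, builds the paraspeckles, nuclear bodies held together by RNA and by proteins such as Nono and Sfpq. Meg3, Rian and Mirg are read in the same direction from the maternal copy of the imprinted Dlk1-Dio3 region, and Rian and Mirg are hosts from which small nucleolar RNAs and microRNAs are cut. Miat, also called Gomafu, is a nuclear RNA of neurons that binds splicing factors, and Snhg11 is a small nucleolar RNA host abundant in neurons. Gm26917 is an annotated noncoding gene next to Gm42418 in a stretch of ribosomal RNA-like sequence, so its reads can belong to near-identical copies elsewhere and its counts are uncertain.

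The label of abundant RNAs held for some of these genes and not for others. In TPM, a unit of RNA level per transcript length, Malat1 stood between rank 11 and rank 206 of all genes over the 28 libraries. Meg3 stood between rank 27 and rank 64 at P4, P13 and P21, and between rank 640 and rank 1083 at E10.5. Neat1 went against the label: it ranked between 6276 and 16373, with 26 to 1581 expected counts in a library. Mirg ranked between 171 and 6203. Together the 8 genes took from 3.46% of an E13.5 library to 29.6% of a DIV28 library.

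Library totals ran from 2704682 to 21823500 counts, so that sampling error is small for most members. Neat1 had few counts throughout, and Mirg had 94 to 131 in the E10.5 libraries. The 7 motor neuron markers, among them Chat and Mnx1, summed to 0.0286% to 0.178% of a library, and none of them was at 0 throughout any group. The sum hides markers that moved in opposite directions, by the rule for calls given below. From E10.5 to E13.5, 4 were lower, down to Mnx1 (log2 difference -4.12), and 2 higher, up to Slc5a7 (3.26). From DIV0 to DIV28, 4 were lower, down to Isl2 (-3.83), and 1 higher, Prph (3.40). No marker was called at any step from P13 to 2yr. The libraries that stand apart were those of E13.5 and P13, whose fragments were longer (267 to 275 bases, against 168 to 246 in all others) and which held little of Gm42418 (0.0914% to 0.116%, against 0.584% to 3.34%), and replicate 2 of DIV28 with and without TTX, which were sequenced most deeply in culture. At E13.5 the summed share of 6 endothelial markers was 0.258% to 0.429% and that of 8 erythroid markers 0.358% to 0.365%, against at most 0.157% and 0.0329% in any other group. The library titled DIV0 replicate 3 was counted as DIV28 replicate 3, because its deposited file is named so and the study lists 2 DIV0 and 3 DIV28 libraries. Over 11611 genes its logged counts correlated at 0.93 to 0.94 with the other 2 DIV28 libraries, at 0.90 to 0.96 with those with TTX and at 0.70 to 0.71 with the DIV0 libraries; without it the members called were as many as with it in every comparison below but that of DIV28 with DIV7.

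Sequences are shown first for the promoters on which the chromatin data bear and for small RNAs that the hosts carry. Promoters are from RefSeq on GRCm38.p6, from 250 bases before to 50 bases after a start, and 6 of the 8 genes had one in the table. Each is printed 5′ to 3′ on the gene's strand, and capitals mark the letters TGACG (1 side of the cyclic AMP response element, CRE), TGACGTCA (the whole CRE), CCAAT and TATAAA, searched on both strands, where the whole CRE contains TGACG on both. The Malat1 promoter lies at chr19:5802623-5802922 on the minus strand, the Meg3 promoter at chr12:109540746-109541045 on the plus strand and the Snhg11 promoter at chr2:158375463-158375762 on the plus strand. The 300 bases around the median summit of the Malat1 peak lie at chr19:5803507-5803806 on the minus strand, upstream of the annotated gene, and are shown because the strongest open chromatin sat there.
Malat1 promoter: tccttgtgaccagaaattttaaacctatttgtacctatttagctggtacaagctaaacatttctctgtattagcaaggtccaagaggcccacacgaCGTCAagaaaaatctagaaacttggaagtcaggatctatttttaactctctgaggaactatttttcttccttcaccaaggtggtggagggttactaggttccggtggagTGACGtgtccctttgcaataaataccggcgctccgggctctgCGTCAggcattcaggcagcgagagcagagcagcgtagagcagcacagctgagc
Malat1 peak summit: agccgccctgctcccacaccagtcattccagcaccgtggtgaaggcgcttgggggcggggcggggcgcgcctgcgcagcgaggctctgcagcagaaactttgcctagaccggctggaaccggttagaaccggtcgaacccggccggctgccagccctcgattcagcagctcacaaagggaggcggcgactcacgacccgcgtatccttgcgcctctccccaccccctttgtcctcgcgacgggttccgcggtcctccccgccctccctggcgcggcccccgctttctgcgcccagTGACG
Meg3 promoter: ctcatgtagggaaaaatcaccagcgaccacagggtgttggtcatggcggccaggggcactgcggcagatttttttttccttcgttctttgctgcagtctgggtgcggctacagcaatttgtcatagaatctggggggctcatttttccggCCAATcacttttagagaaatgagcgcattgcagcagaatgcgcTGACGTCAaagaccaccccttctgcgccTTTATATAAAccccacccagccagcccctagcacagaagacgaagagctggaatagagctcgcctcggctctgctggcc
Snhg11 promoter: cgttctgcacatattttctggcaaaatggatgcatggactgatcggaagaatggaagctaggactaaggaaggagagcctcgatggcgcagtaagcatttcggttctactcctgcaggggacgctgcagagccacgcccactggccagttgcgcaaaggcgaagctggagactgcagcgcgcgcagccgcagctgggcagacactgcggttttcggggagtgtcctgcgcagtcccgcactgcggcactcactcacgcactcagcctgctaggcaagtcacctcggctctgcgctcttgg
TGACG was found 3 times in the Malat1 promoter and in 20.8% of all 32851 promoters. The whole CRE was found once in the printed Meg3 promoter, beginning 57 bases before the start, and in 1.79% of all promoters. Meg3 also held CCAAT, found in 37.4% of promoters, and TATAAA on both strands, found in 13.6%. The table holds a second Meg3 promoter, at chr12:109545148-109545447 on the plus strand, which is not printed, holds none of these letters and was reached by no peak in any of the 22 ATAC-seq libraries. The Snhg11 promoter held none of the letters either, which says only that they are not in this window.

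The 3 imprinted genes held 35 mature microRNAs of the RefSeq table on their own strand, of which 26 lay in Mirg, 6 in Rian and 3 in Meg3, with 34 different seeds. One sequence is shown per host, with the only 2 that share a seed; the seed, bases 2 to 8, is in capitals. The libraries did not measure mature microRNAs, so that only the hosts are counted below.
mmu-miR-770-5p (Meg3): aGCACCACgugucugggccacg
mmu-miR-370-3p (Rian): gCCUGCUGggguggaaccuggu
mmu-miR-134-5p (Mirg): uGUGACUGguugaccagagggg
mmu-miR-453 (Mirg): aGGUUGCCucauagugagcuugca
mmu-miR-496a-5p (Mirg): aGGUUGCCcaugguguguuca
The 2 with the shared seed GGUUGCC are both in Mirg, and miR-134, also in Mirg, is known from work on dendritic spines.

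**Figure D1:**
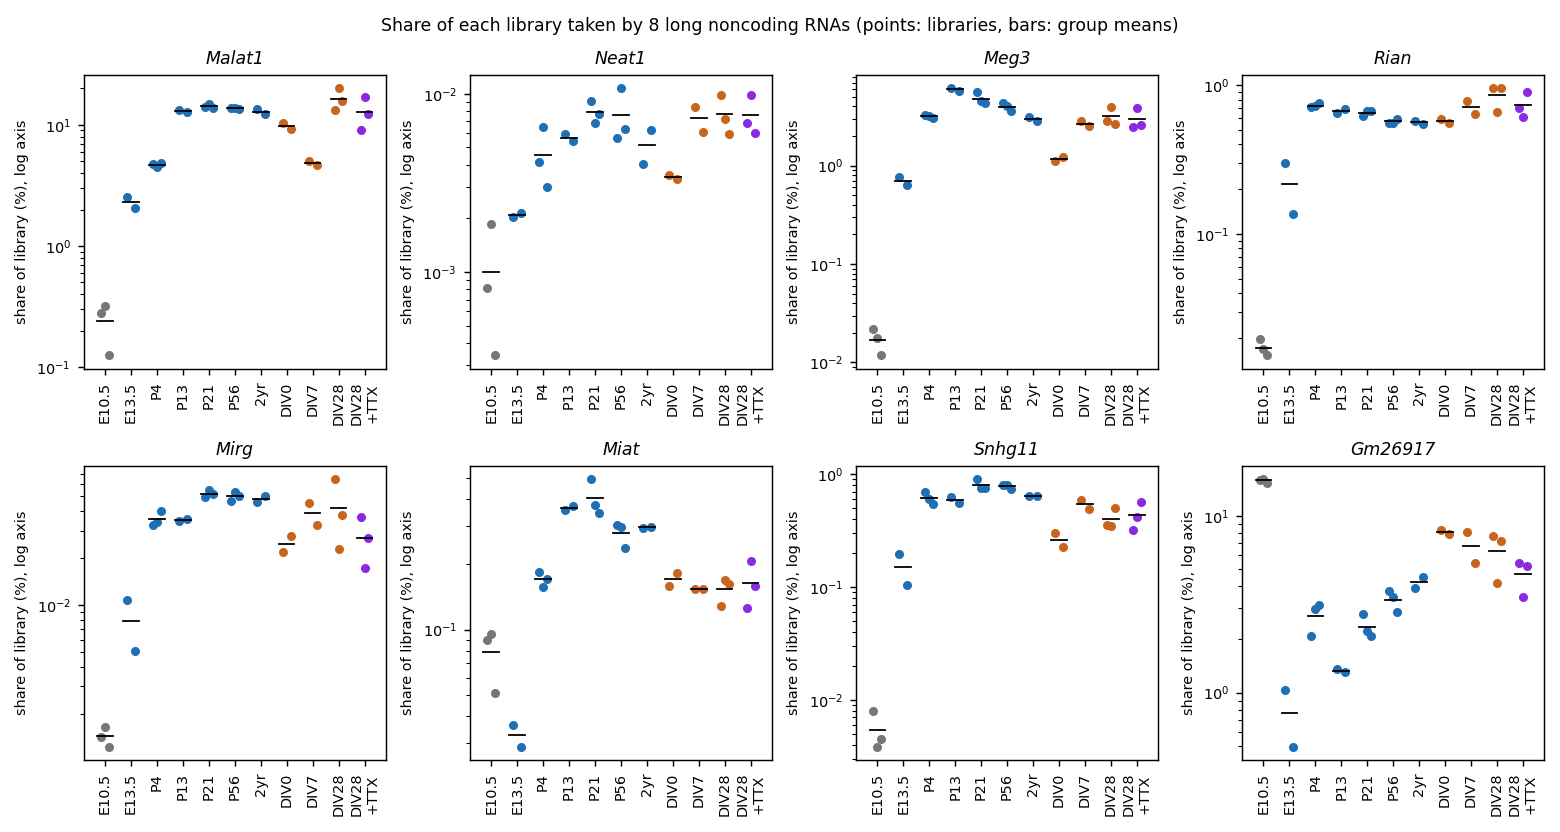
Share of each library's expected counts (percent, log axis) for the 8 genes by group; points are libraries, bars are group means, grey is whole cells, blue is nuclei from tissue, orange is culture and purple is culture with TTX. Malat1 runs from 0.125% at E10.5 to 20.2% at DIV28, and Gm26917 alone is highest at E10.5, at 15.5% to 16.2%.

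Malat1 (chr19:5795690-5802672, minus strand, a long intergenic noncoding RNA in GENCODE vM21) was the member that took most of a mature motor neuron library. Its share was 0.280%, 0.320% and 0.125% in the whole cells of E10.5, and 2.52% and 2.06% in the nuclei of E13.5. It was 4.77%, 4.46% and 4.83% at P4, and 13.3% and 12.7% at P13. It was 13.9% to 14.8% at P21, 13.7% ± 0.211 (SD, n = 3) at P56 and 12.2% to 13.4% at 2yr, so that from P13 on all tissue libraries lay between 12.2% and 14.8%. In culture Malat1 began high, at 10.4% and 9.24% at DIV0, was lower at DIV7 with 5.08% and 4.70%, and reached 13.2%, 20.2% and 15.6% at DIV28. The DIV7 libraries overlapped in range with those of P4, and those of DIV28 with those of P21.

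Neat1 (chr19:5824708-5845478, minus strand), which lies 22036 bases from the Malat1 gene, was low throughout. Its share was 0.000340% to 0.00186% at E10.5, 0.00203% and 0.00215% at E13.5, 0.00298% to 0.00655% at P4 and 0.00686% to 0.00915% at P21. One P56 library reached 0.0108%, and the other two had 0.00563% and 0.00633%. In culture the share was 0.00332% and 0.00351% at DIV0 and 0.00595% to 0.00991% at DIV28. In the order of group means each group from P21, the highest, down to DIV0 overlapped with the next, apart from DIV7 and P13, and E13.5 and E10.5 were last and apart. Neat1 and Malat1 thus differed widely in level although they are neighbours: at P21 the TPM of Neat1 was 2.18 to 4.35, and that of Malat1 10920 to 13712.

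The imprinted trio of chromosome 12 rose through the embryonic and perinatal ages. Meg3 (chr12:109541001-109571726), Rian (chr12:109603940-109661716) and Mirg (chr12:109729764-109749460) lie in this order on the plus strand within 208460 bases. The Meg3 share was 0.0219%, 0.0176% and 0.0118% at E10.5, 0.764% and 0.629% at E13.5, and 3.24%, 3.22% and 3.05% at P4. It was highest at P13, with 6.17% and 5.78%. It was then 5.58%, 4.54% and 4.29% at P21, 4.32%, 4.05% and 3.58% at P56 and 3.11% and 2.85% at 2yr, so that the old libraries lay below every P13, P21 and P56 library. The mean share of Rian had the same order, with 0.673% at P13, 0.656% at P21, 0.571% at P56 and 0.565% at 2yr, and its 2yr libraries lay below every P13 and P21 library and among those of P56. Mirg had no such order.

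Rian, the host of 13 annotated small nucleolar RNA genes on its strand, had reached its adult level at P4. Its share was 0.0197%, 0.0168% and 0.0153% at E10.5 and 0.299% and 0.136% at E13.5, the last a wide gap between 2 libraries. It was 0.712%, 0.724% and 0.756% at P4, and between 0.552% and 0.693% in all 10 later tissue libraries. Mirg, the host of 14 annotated microRNA genes, had a share of 0.00123% to 0.00165% at E10.5, 0.0108% and 0.00507% at E13.5, 0.0326% to 0.0402% at P4 and 0.0494% to 0.0547% at P21. It was 0.0468% to 0.0537% at P56 and 0.0461% and 0.0502% at 2yr, ranges that overlapped.

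In culture the trio started above the level of E13.5. Meg3 had 1.11% and 1.22% at DIV0, 2.84% and 2.52% at DIV7 and 2.85%, 3.99% and 2.64% at DIV28, with replicate 2 the highest. Rian had 0.589% and 0.558% at DIV0, close to P56, and 0.960%, 0.657% and 0.954% at DIV28. Mirg had 0.0218% and 0.0277% at DIV0 and 0.0645%, 0.0230% and 0.0382% at DIV28, where the library lowest in Mirg was replicate 2.

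Miat (chr5:112213228-112229395, minus strand) was the only member other than Gm26917 with a lower share at E13.5 than at E10.5. Its share was 0.0896%, 0.0953% and 0.0513% at E10.5 and 0.0362% and 0.0289% at E13.5. It was 0.184%, 0.158% and 0.171% at P4, 0.355% and 0.371% at P13, 0.493%, 0.376% and 0.344% at P21, 0.303%, 0.298% and 0.238% at P56, and 0.294% and 0.297% at 2yr. Miat in culture stayed at the level of P4: 0.159% and 0.182% at DIV0, 0.154% in both DIV7 libraries and 0.128%, 0.170% and 0.162% at DIV28. No DIV28 library came up to the lowest library of P13 or P21.

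Snhg11 (chr2:158375638-158386145, plus strand, typed as protein-coding in GENCODE vM21, with 2 small nucleolar RNA genes inside) had a share of 0.00801%, 0.00385% and 0.00449% at E10.5. It was 0.197% and 0.105% at E13.5, 0.691%, 0.599% and 0.539% at P4, and 0.902%, 0.753% and 0.750% at P21. At 2yr it was 0.637% and 0.635%, within the range of P4. In culture the share was 0.298% and 0.227% at DIV0, 0.592% and 0.487% at DIV7, and 0.354%, 0.344% and 0.505% at DIV28, so that the highest mean in culture was at DIV7.

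Gm26917 (chr17:39843013-39846341, plus strand) had the opposite pattern in the embryo. It took 16.1%, 16.2% and 15.5% of the whole-cell libraries of E10.5 and 1.03% and 0.493% of the nuclear libraries of E13.5. It took 2.08%, 2.98% and 3.12% at P4, 1.36% and 1.3% at P13, 2.77%, 2.23% and 2.09% at P21, 3.77%, 3.47% and 2.85% at P56, and 3.93% and 4.52% at 2yr. In culture it took 8.34% and 7.89% at DIV0, 8.11% and 5.44% at DIV7, and 7.68%, 4.20% and 7.25% at DIV28. All culture libraries without TTX but DIV28 replicate 2 lay above every nuclear tissue library. The summed share of 6 measured genes with ribosomal RNA-like sequence was 1.79% to 1.87% at E10.5, 0.149% to 0.163% at E13.5, 0.122% to 0.141% at P13 and 1.52% to 3.42% at DIV28; its part in the level of Gm26917 was not tested.

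To ask at which age the members changed, libraries were compared step by step with edgeR's quasi-likelihood test on the rounded expected counts, in 1 fit of the 18 tissue libraries. A gene was called changed with an unadjusted p below 0.001 and a fold of at least 2, limits chosen after the methods of the study. The members had been chosen on shares of these same counts, so that their fitted differences, p-values and numbers of calls describe them and are not independent evidence; the percent of all genes called is given for scale, and nothing is read from the members' number against it. In 10 of the 11 groups all 8 members had at least 5 CPM (counts scaled to library size) in every replicate, the filter used; at E10.5 Neat1 did not, so that no member was kept by 1 high group alone. In bulk samples a lower count can come from fewer cells of a type or from less of the RNA per cell, and these cannot be told apart.

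From E10.5 to E13.5, 5 of 7 members tested were higher, 1 was lower and 1 was not called; 24.6% of 15030 genes tested were called higher and 19.4% lower. Meg3 rose by 5.08 ± 0.26 on the log2 scale (SE, adjusted p = 4.81e-11) and Snhg11 by 4.49 ± 0.28 (adjusted p = 4.80e-10). Rian rose by 3.35 ± 0.22, Malat1 by 2.98 ± 0.29 and Mirg by 2.16 ± 0.20. Miat fell by 1.54 ± 0.23 (adjusted p = 1.37e-05), a call that was lost when only these 2 groups were fitted (-1.45). Neat1 had a log2 difference of 0.81 ± 0.44, which was not called. Gm26917 was chosen for its E10.5 level and got no test here. The median log2 difference of all genes at this step was 0.13 with TMM scaling and 0.237 with median-of-ratios scaling. At this step the material also went from whole cells to nuclei and from HB9-GFP to Chat-Cre mice. By the methods of the study the thoracic cord was included at E10.5 and left out for the later RNA nuclei. The summed share of 13 mitochondrially encoded messenger RNAs was 0.421% to 0.520% at E10.5 and 0.0879% to 0.112% at E13.5. Age and material cannot be told apart.

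From E13.5 to P4, both measured in nuclei, 6 of 8 members were called higher and none lower, against 23.8% of all genes called higher. The median log2 difference of all genes was 0.12 with TMM and 0.013 with median-of-ratios scaling. Miat rose by 2.44 ± 0.24, Mirg by 2.24 ± 0.21, Meg3 by 2.23 ± 0.26 and Snhg11 by 2.08 ± 0.29 on the log2 scale. Gm26917 rose by 1.91 ± 0.30, a call that was lost when only these 2 groups were fitted (1.84), and Rian by 1.82 ± 0.23. Malat1 had a difference of 1.08 ± 0.30 (adjusted p = 0.00419, unadjusted p = 0.00222), short of the call. Endothelial and erythroid markers were highest at E13.5 among all groups, as given above, and their part in these differences was not tested. The E13.5 libraries also had the longer fragments. The summed share of the ribosomal RNA-like genes was 0.149% to 0.163% at E13.5 and 1.48% to 1.55% at P4. The part of this library difference in the rise of Gm26917 was not tested.

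From P4 to P13, 3 of 8 members were called higher and none lower. Of all 15030 genes tested, 5.80% were called higher, and 1134 genes were called lower. Malat1 rose by 1.74 ± 0.29 (adjusted p = 0.000192), Miat by 1.35 ± 0.22 (adjusted p = 0.000144) and Meg3 by 1.18 ± 0.23 (adjusted p = 0.000948). The Meg3 call was lost without P13 replicate 1 (1.08, unadjusted p = 0.00197). Rian had 0.14 ± 0.21 and Mirg 0.26 ± 0.19, so that within the trio Meg3 alone was called. Since the P13 libraries had the longer fragments, P21 was also set against P4, a comparison added after seeing the data: 2 members, Malat1 with 1.83 ± 0.27 and Miat with 1.47 ± 0.20, were called higher, against 5.85% of genes, and both were called when the E13.5 and P13 libraries were left out of the fit (1.81 and 1.45). Meg3 had 0.83 ± 0.21 from P4 to P21 (adjusted p = 0.00512) and Mirg 0.77 ± 0.17 (adjusted p = 0.00183), both under the 2-fold limit. The summed share of 6 oligodendrocyte markers was 0.0438% to 0.0562% at P4, 0.211% to 0.217% at P13 and 0.113% to 0.153% at P21. That of 6 endothelial markers was 0.113% to 0.157% at P4, 0.00604% to 0.00902% at P13 and 0.000651% to 0.00126% at P21, and that of 5 pericyte markers 0.0710% to 0.107%, 0.00587% to 0.00772% and 0.000551% to 0.00141%. All members of these 3 lists were called from P4 to P13, the first list higher and the other 2 lower, and their part in these changes was not tested.

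After P13 no member was called by edgeR at any step from 1 age to the next, nor by DESeq2. At an unadjusted p under 0.05 there were 2 members from P13 to P21, Mirg and Gm26917, then Miat alone from P21 to P56, and none from P56 to 2yr. From P13 to P21, 7.30% of genes were called in either direction (226 higher and 871 lower, or 323 and 720 with median-of-ratios scaling), from P21 to P56 only 0.173%, and over the last step, to 2yr, 0.685% (75 higher and 28 lower, or 59 and 35). The largest difference from P13 to P21 was that of Gm26917, with 0.79 ± 0.29 (adjusted p = 0.0588). From P21 to P56 it was that of Miat, with -0.59 ± 0.20 (adjusted p = 0.599). The lower Meg3 share of the old libraries came with a log2 difference of -0.38 ± 0.24 from P56 to 2yr (95% interval -0.85 to 0.10, adjusted p = 0.56) and of -0.71 ± 0.24 from P21 to 2yr, an added comparison (95% interval -1.19 to -0.23, unadjusted p = 0.00943, adjusted p = 0.228). Malat1 from P56 to 2yr had -0.06 with a 95% interval of -0.63 to 0.51.

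**Figure D2:**
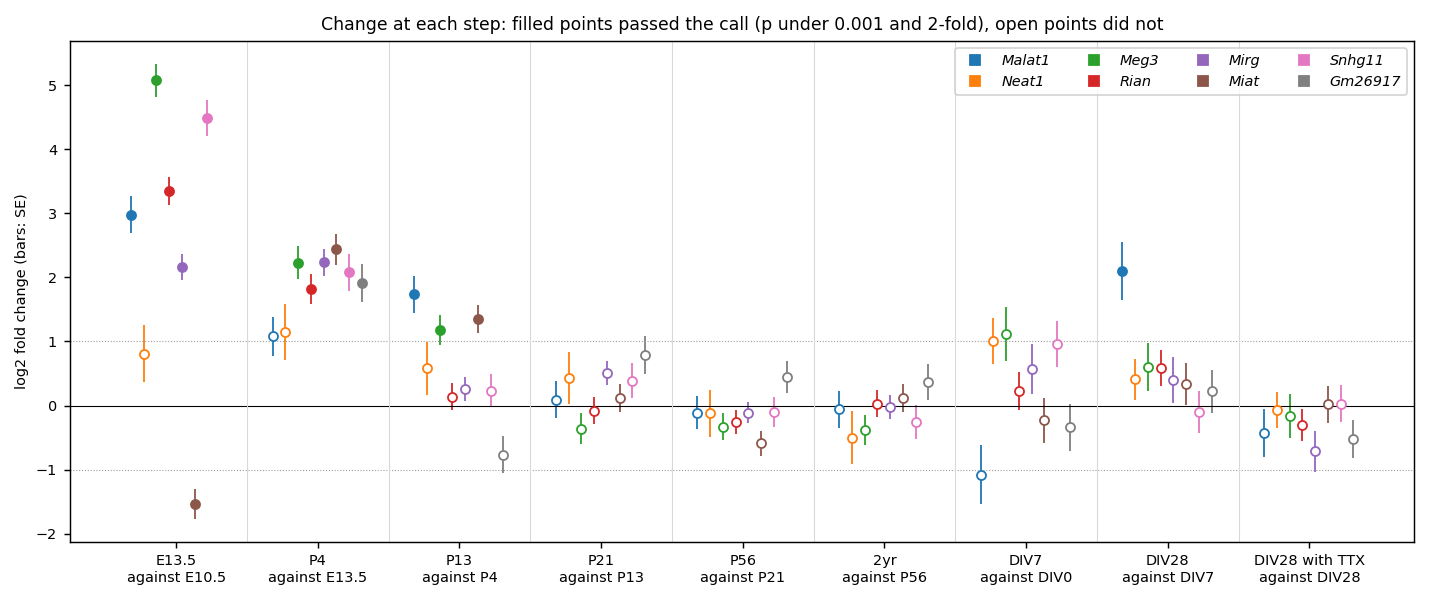
Log2 fold change of each member at each step, with its SE, in the tissue fit (6 steps) and the culture fit (3 comparisons); filled points passed the call, dotted lines mark 2-fold, and Gm26917 is left out of the first step. Filled points end at P13 in tissue, and Malat1 at DIV28, at 2.10, is the only filled point in culture.

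In culture, in a fit of the 10 culture libraries, no member was called by edgeR or DESeq2 from DIV0 to DIV7, against 11.2% of 12890 genes in either direction; Malat1, Neat1, Meg3 and Snhg11 had an unadjusted p under 0.05. Meg3 had 1.12 ± 0.42, which was called when only these 2 groups were fitted, and Neat1 1.01 ± 0.36, and Malat1 had -1.08 ± 0.46 with both DIV7 libraries below both DIV0 libraries. From DIV7 to DIV28, Malat1 alone was called higher (2.10 ± 0.45, adjusted p = 0.00914), 1 of 8 members against 3.62% of genes. That call was lost without either DIV7 library (2.18 and 2.05), without DIV28 replicate 2 (1.79) or without replicate 3 (2.16), or when only these 2 groups were fitted (2.10), and held without replicate 1, although every DIV28 library was above both DIV7 libraries. Over the same step Meg3 had 0.60 ± 0.38 and Snhg11 -0.10 ± 0.33.

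Maturation in tissue and in culture was then compared in a fit of the 25 libraries without TTX. From E13.5 to P21 all 8 members were called higher, against 24.7% of 15521 genes, led by Miat with 3.73 ± 0.29 and Meg3 with 2.88 ± 0.31. The Neat1 call (1.99 ± 0.43) was lost without E13.5 replicate 1 (1.92) or 2 (2.15) or without P21 replicate 1 (1.77). From DIV0 to DIV28 only Meg3 was called, with 1.75 ± 0.30, against 17.1% of genes called higher. With only these 2 groups fitted Meg3 (1.73) lost the call and Neat1 (1.44) gained it. Neat1 had 1.45 ± 0.43, Malat1 1.04 ± 0.34, Mirg 0.99 ± 0.27 and Miat 0.15 ± 0.24. Mirg was called when DIV28 replicate 2 was left out (1.23).

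The start of the cultures differed from the start in tissue. At DIV0, 5 of 8 members were called higher than at E13.5, against 15.1% of genes: Gm26917 by 3.49 ± 0.36, Miat by 2.44 ± 0.28, Malat1 by 2.15 ± 0.37, Mirg by 1.72 ± 0.29 and Rian by 1.48 ± 0.24. With only these 2 groups fitted 2 of the 5 calls held, those of Gm26917 and Miat, and Malat1 (2.16), Mirg (1.73) and Rian (1.48) lost theirs. Meg3 had 0.79 ± 0.31 and Snhg11 0.87 ± 0.30, neither called. The libraries of E13.5 held the vessel and blood markers given above, and those of DIV0 nearly none. At DIV0 endothelial markers were at most 0.000257%, with Sox17, Flt1, Cdh5 and Cldn5 at 0. The summed share of the ribosomal RNA-like genes was 0.149% to 0.163% at E13.5 and 0.961% to 1.14% at DIV0. The part of these markers and genes in this difference was not tested. At the end, DIV28 against P21, 1 member was called higher and 1 lower. Gm26917 was higher by 1.64 ± 0.27 (adjusted p = 3.86e-05), against 13.3% of genes called higher. Miat was lower, with -1.15 ± 0.22 (adjusted p = 0.000162), against 13.1% called lower, a call that was lost without P21 replicate 1 (-0.95), without DIV28 replicate 1 (-0.97) or with only these 2 groups fitted (-1.14). Malat1, with 0.46 and a 95% interval of -0.11 to 1.04, and Meg3, with -0.34 and an interval of -0.83 to 0.15, were not called.

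The change from DIV0 to DIV28 minus that from E13.5 to P21 was negative for all 8 members, and 4 passed the call, against 17.5% of genes called in that direction. The comparison shares its libraries with the spans above. Its E13.5 libraries had long fragments and little ribosomal RNA-like sequence, as given above, and the part of this in the differences was not tested. Miat had a difference of -3.59 ± 0.35 (adjusted p = 2.24e-08), Gm26917 -1.85 ± 0.43, Mirg -1.84 ± 0.37 and Snhg11 -1.64 ± 0.39. Malat1, with -1.68 ± 0.46 (edgeR, unadjusted p = 0.0015), missed the call, and passed it with median-of-ratios scaling (-1.78). Without DIV28 replicate 2 both Malat1 (-1.92) and Meg3 (-1.38) passed, and without E13.5 replicate 1 Rian did (-1.49). With only these 4 groups fitted the Miat call held, and those of Gm26917 (-1.83), Mirg (-1.82) and Snhg11 (-1.62) were lost. The Miat call also held without any one library; of the other 3, at least 1 was lost without E13.5 replicate 2, P21 replicate 1, DIV0 replicate 1, DIV0 replicate 2 or DIV28 replicate 1, and the count was 1 without E13.5 replicate 2 (Mirg -1.47, Snhg11 -1.33, Gm26917 -1.49). When the later spans were taken instead, from DIV7 to DIV28 and from P4 to P21, which was added after seeing the data and does not use E13.5, no member was called, against 13.3% of genes in either direction. Miat then had -1.12 ± 0.32 (edgeR, adjusted p = 0.0126, unadjusted p = 0.00218), the only member with an unadjusted p under 0.05, and was called without DIV28 replicate 2 (-1.3). Malat1 had 0.28 ± 0.44.

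To ask whether silencing changed the members, cultures grown in TTX were compared with untreated DIV28 cultures. No member was called by edgeR or DESeq2, against 0.683% of 12890 genes in either direction, and Mirg alone had an unadjusted p under 0.05. The Malat1 share was 9.11%, 17% and 12.3% with TTX and 13.2%, 20.2% and 15.6% without, in the order of replicates 1 to 3; it was lower with TTX within each replicate number, while the groups overlapped. Mirg was likewise lower in each pair, at 0.0368%, 0.0173% and 0.0270% with TTX and 0.0645%, 0.0230% and 0.0382% without, ratios of 0.570, 0.752 and 0.707. Gm26917 was lower in each pair too, with 5.41%, 3.50% and 5.19% against 7.68%, 4.20% and 7.25%. Meg3 and Rian were lower in each pair by smaller ratios, from 0.879 to 0.987 and from 0.732 to 0.940. Miat, Snhg11 and Neat1 were higher in some pairs and lower in others.

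The unpaired log2 differences with TTX were -0.43 ± 0.37 for Malat1, -0.71 ± 0.32 for Mirg and -0.52 ± 0.30 for Gm26917, with adjusted p of 0.906, 0.624 and 0.788. The study grew the cultures of 1 replicate number side by side with and without TTX. Libraries of the same number deviated together from their group means (correlations of 0.58, 0.50 and 0.66 over genes). For unlike numbers the correlations were -0.37 to -0.18. Deviations cancel out within a group, so positive values for like numbers force negative ones among unlike numbers. The negative values are thus no separate evidence. With the replicate number as a block the differences were -0.45 for Malat1 (adjusted p = 0.00194), -0.65 for Mirg (adjusted p = 0.00367) and -0.49 for Gm26917 (adjusted p = 0.00147), all under 2-fold, so that again no member was called; that fit called 127 genes higher and 154 lower of 10764, against 36 higher and 52 lower without the block. The mitochondrially encoded messenger RNAs took 0.0589% to 0.0721% of the TTX libraries and 0.0348% to 0.0544% of the untreated ones, and their part in these values was not tested.

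**Figure D3:**
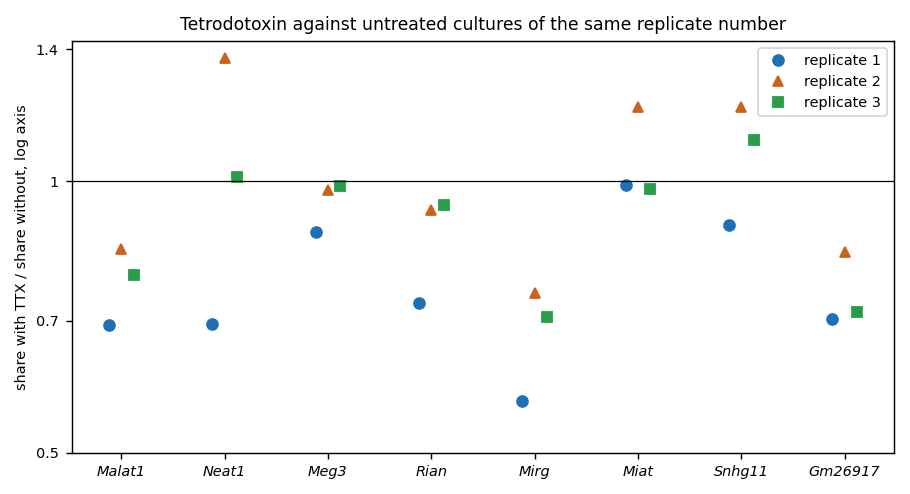
Share with TTX divided by share without, for each member and replicate number (log axis); the line marks no difference. Malat1, Mirg and Gm26917 lie under the line in all 3 replicates, from 0.570 (Mirg) to 0.842 (Malat1), while Miat, Snhg11 and Neat1 lie on both sides.

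A readout not used to choose the members is the isoform-weighted length, the mean length of a gene's transcripts as weighted by RSEM with their estimated abundance. Meg3 was estimated at 2258, 2493 and 1892 bases at E10.5, and at 10461 and 11011 bases at E13.5. It was 8614 to 8893 bases at P4, 11699 and 11362 at P13, 8859 to 9017 at P21, 8728 to 8902 at P56, and 8477 and 7674 at 2yr. In culture it was 5915 and 7011 bases at DIV0 and 7416, 11039 and 8779 at DIV28. The Meg3 RNA in the whole cells of E10.5 was thus assigned to short transcripts, and in every group of nuclei to longer ones, the shortest estimate being 5414 bases at DIV7. All whole-cell libraries were of E10.5, so age and material cannot be told apart here. The E10.5 estimates rested on 903 to 1558 Meg3 counts. The antisense gene Gm26906 overlaps Meg3, and reads of both strands cannot be told apart without strand in the counting.

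Miat was estimated at 6334 to 6788 bases at E10.5, at 3656 and 4907 at E13.5, and at 6035 to 6658 at P4. It was 4648 and 4334 bases at P13 and 6764 to 6936 at P21. So the E13.5 and P13 libraries, those with long fragments, had longer estimates for Meg3 and shorter ones for Miat than the ages around them; the part of fragment length in this was not tested. The estimates of Neat1 ran from 7411 to 20771 bases and rested on few counts. Those of Rian lay between 1657 and 2287 bases, with the E10.5 libraries lowest at 1657 to 1807.

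**Figure D4:**
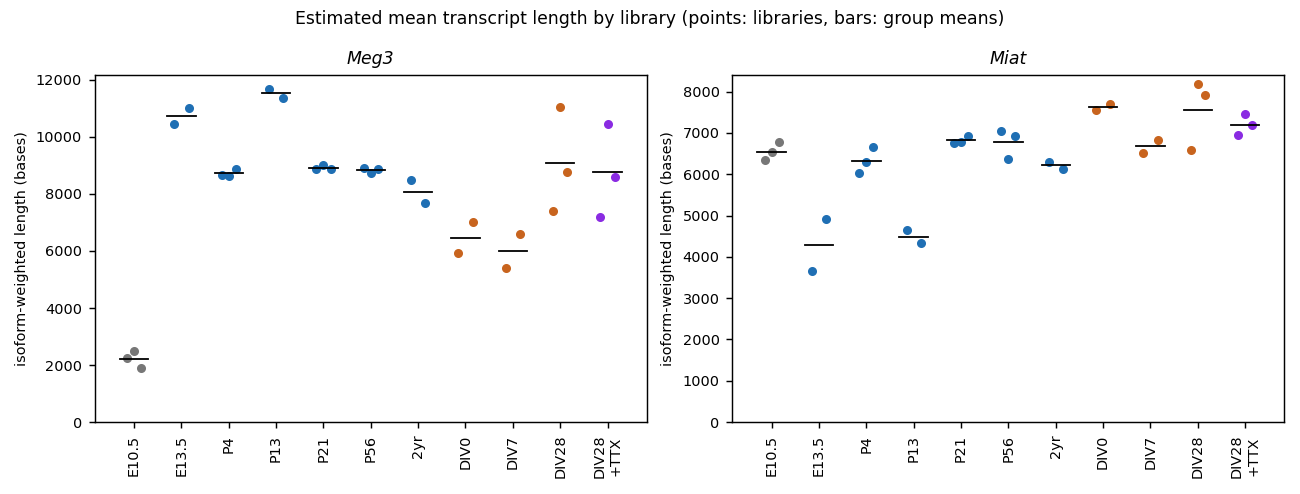
Isoform-weighted length in bases of Meg3 (left) and Miat (right) by group; points are libraries, bars are group means, colours as in the plot of shares. Meg3 is at most 2493 bases in the 3 E10.5 libraries and at least 5414 in all others, and the 4 lowest Miat estimates, at most 4907 bases, are those of E13.5 and P13.

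Open chromatin was the other readout that the choice did not use. For ATAC-seq the tissue nuclei from E13.5 on were sorted by flow cytometry, not pulled down, and came from cord that included the thoracic part. The RNA nuclei came from brachial and lumbar cord only. The E10.5 ATAC-seq libraries came from sorted whole cells of HB9-GFP embryos, with another published protocol. Age and material thus cannot be told apart where E10.5 peaks are set beside later ones. Peaks had been called in each library by the study, and a member was scored by its strongest peak within 1000 bases of an annotated start. Malat1, Meg3, Miat and Snhg11 had such a peak in all 22 libraries, Mirg in 21, Neat1 in 20 and Rian in 19. Of all 55536 annotated genes 36.0% to 46.0% had one in a library, of protein-coding genes 65.4% to 73.1% and of long noncoding genes 30.4% to 46.2%. Gm26917 had none in any library, and the nearest peak was at least 12687 bases away. It lies in ribosomal RNA-like sequence, and the study set aside peaks in blacklisted parts of the genome. Whether a peak could have been called at Gm26917 was not tested, so its absence does not show closed chromatin. Meg3, Rian and Mirg have 11, 19 and 11 annotated starts, Miat has 6, Snhg11 has 5, and Malat1 and Neat1 have 4 each. All of these genes thus had more chances than a gene with 1 start.

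The fold enrichment of the Malat1 peak was 5.25 and 6.70 at E10.5, and 25 and 13.1 at E13.5. Both P4 libraries lay between those of E13.5 and those of P13, which had 7.93 and 7.15. It was 5.39 and 6.60 at P21, 7.22 and 5.94 at P56, and 5.62 and 5.08 at 2yr. In culture it was 11.1 and 11 at DIV0 and 9.95 and 7.72 at DIV28. Its summit lay within 100 bases of chr19:5803656 in 20 of 22 libraries, with a median of 984 bases before the nearest annotated start, in the GC-rich stretch (70.0% GC) printed above. A peak reached into the printed Malat1 promoter in 21 libraries, with the summit inside it in 6.

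The Meg3 peak was steadier, at 5.31 to 9.12 from P4 to P56, with 12 and 7.58 at E13.5 and 4.24 and 7.98 at E10.5. Its strongest summit was near chr12:109543065 in 19 libraries, about 791 bases past an annotated start inside the gene. The printed Meg3 promoter, with the CRE, was reached by a peak in 19 libraries, at 1.78 to 4.79-fold. Within 1000 bases of a start, Rian and Mirg had mostly weak peaks, with medians of 2.34 and 2.41-fold, and no E10.5 library had a Rian peak. The Mirg peak was highest at DIV0, at 7.13 and 6.09-fold. The Mirg median depended on the window, as given in the closing section.

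Miat had 16.2 and 12.2-fold at E13.5, 4.49 and 5.24 at P21 and 5.22 and 6.11 at DIV28. Snhg11 had 22.5 and 11.7-fold at E13.5 and 3.48 to 4.21 at P13 and P21, and its summit lay inside the printed promoter, within 28 bases of a start, in all 22 libraries. Neat1 had 9.83 and 5.72-fold at E13.5, 1.90 to 2.22 at P13, P21 and P56, and 6.87 and 6.43 at DIV0. For Malat1, Neat1, Miat and Snhg11 both E13.5 libraries were thus above all tissue libraries of P13 and later. The median fold enrichment of all peaks was 5.16 and 4.19 at E13.5 and 2.60 to 3.62 from P13 to 2yr, and enrichments were not rescaled between libraries, so that they are given side by side and not tested.

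**Figure D5:**
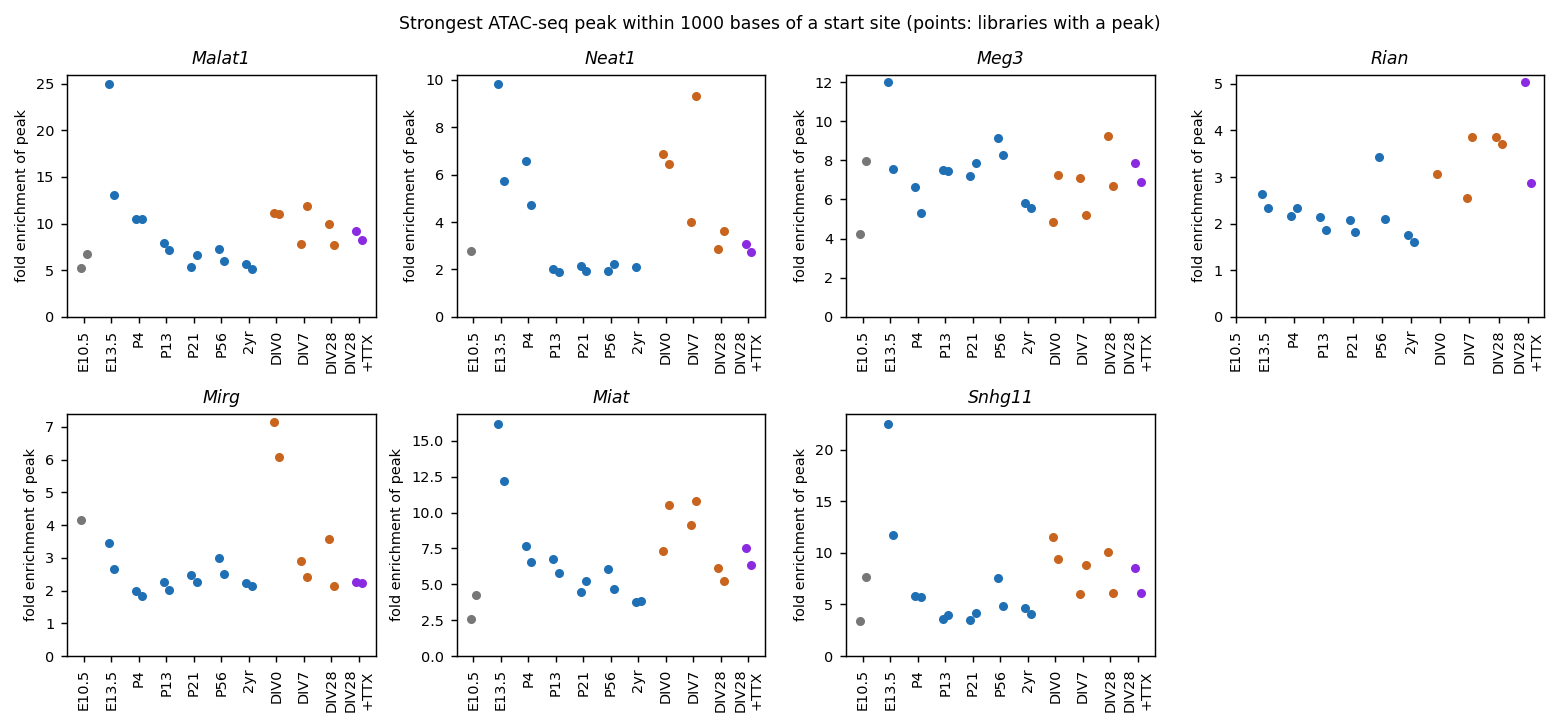
Fold enrichment of the strongest peak within 1000 bases of a start for the 7 members that had any; points are libraries with a peak, colours as in the plot of shares. The Malat1, Miat and Snhg11 peaks are highest at E13.5 (25, 16.2 and 22.5), and Rian has no point at E10.5.

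The proteins that work with these RNAs are given beside the share of all genes called at the same step. From E10.5 to E13.5, 24.6% of genes were called higher and 19.4% lower. Of 20 paraspeckle proteins, 1 was called higher and 3 lower, from Pspc1 (1.09) to Cpsf7 (-1.95), with a median log2 difference of -0.06 against 0.13 for all genes. From E13.5 to P4, 1 was higher and 7 were lower, where 19% of all genes were called lower, with a median of -0.69 against 0.12 and Hnrnph3 (-2.66) the lowest. Of 22 speckle and SR proteins, 4 were higher and 4 lower at the first step, from Luc7l3 (3.07) to Srsf2 (-2.54). From P4 to P13, 2 were higher and none lower, with Pnn (1.63) the highest. Of all 15030 genes tested, 5.80% were called higher, and 1134 genes were called lower. Pnn was then lower from P13 to P21 (-1.54). From P4 to P21, which leaves P13 out of the comparison, 1 of the 22 was higher, Clk4 (1.00), where 5.85% of all genes were. Of the 3 splicing factors known to bind Miat, Celf3 fell by 3.03 and Qk rose by 1.01 from E10.5 to E13.5, and both were called lower from DIV0 to DIV28, with -2.50 and -2.57, against 11.7% of all genes. Of the other genes of the Dlk1-Dio3 region, 7 of 9 were measured, and 2 were higher and 1 lower from E10.5 to E13.5. The highest was B830012L14Rik (3.39), a transcript of the same region, and the lowest Wars (-1.28), while Dlk1, the paternally expressed gene of the region, was lower by 6.49 from DIV0 to DIV28.

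The genes most like each member were found by Pearson correlation of group means of log2(CPM + 1) over the 11 groups, a description in which all points share library depth and the gap between whole cells and nuclei. The nearest to Malat1 was Nbeal1 (0.987), to Neat1 Zfp933 (0.982), to Meg3 Rnpc3 (0.996), to Rian Gm37899 (0.994) and to Mirg Mfsd6 (0.989). Rian was next most like B830012L14Rik (0.991). Gm44800 and Gm44801 were among the 3 nearest to both Meg3 and Snhg11, at 0.989 to 0.993. The nearest to Miat was Pabpc1l2b-ps (0.953) and to Gm26917 Metap1 (0.943), lower values than for the others. Among the members themselves, Meg3 and Snhg11 were most alike (0.99), then Meg3 and Rian and also Mirg and Snhg11 (0.97 each), while Gm26917 had between -0.51 and 0.04 with the other 7.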

How the data were processed

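RNA was measured in 28 libraries made with a stranded total RNA kit after removal of ribosomal RNA. The authors trimmed the reads (Trim Galore with cutadapt 0.6.2), aligned them with STAR 2.5.2b to mm10 and counted with RSEM 1.3.0 at default parameters, so without strand, and deposited expected counts, TPM and lengths per gene. The ATAC-seq peaks were called by the authors with MACS2 2.2.7.1 in each library after alignment with BWA 0.7.1.7 and SAMtools 1.7.2, and deposited with signal as fold enrichment and with −log10 p-values and q-values. The annotation release used for counting is not given in the sources used here, and members were placed by symbol with GENCODE vM21.

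The 8 members and all gene lists were chosen with earlier results of these data known. A share is a gene's percent of all expected counts of a library. For tests, deposited expected counts were rounded to whole numbers and fitted with edgeR 4.0.16 (R 4.3.3, TMM factors, quasi-likelihood), over the genes for which 1 group or more had no replicate under 5 CPM. The 95% intervals are normal intervals from the SE. Fits were made of the 18 tissue, the 10 culture and the 25 libraries without TTX. A call needed an unadjusted p under 0.001 and 2-fold, and adjusted p-values are Benjamini-Hochberg over all genes of the fit. The code was tested on simulated data. DESeq2 1.42.0 and other settings are in the closing section. Named genes were the members, the 3 genes most like each, and the highest and lowest of each list described, with Celf3 in culture added after its value was seen. The library titled DIV0 replicate 3 was grouped as DIV28. Replicates came from separate pools of animals or from cultures.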

Additional observations from a re-analysis of the deposited data

Results flagged for a closer look

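The change from DIV0 to DIV28 differed from the change from E13.5 to P21 for 4 members, by the test of the difference itself in the fit of 25 libraries (edgeR, quasi-likelihood), made on the counts whose shares chose the members. The log2 difference of the changes was -3.59 for Miat (adjusted p = 2.24e-08), -1.85 for Gm26917 (adjusted p = 0.00076), -1.84 for Mirg (adjusted p = 0.000199) and -1.64 for Snhg11 (adjusted p = 0.000928). All 4 began higher at DIV0 than at E13.5 by the fitted values, Snhg11 by 0.87, which was not called. With DIV7 and P4 as starts, none of the 4 was called, and Miat had -1.12. The E13.5 libraries had long fragments and little ribosomal RNA-like sequence, and the part of this in the 4 values was not tested.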

How the results depend on the processing

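Of the members' fold changes under other settings, 1532 of 1592 kept their side of the threshold, 33 lost the call and 27 gained it. No called value changed direction, and 36 uncalled ones, of 0.28 or less as reported, changed sign. Fitting only the compared groups gave 1 member from DIV0 to DIV7 (Meg3), 0 from DIV7 to DIV28, 1 between DIV28 and P21, 2 between DIV0 and E13.5, and 1 in the difference of spans. From DIV0 to DIV28 the count was 4 without a filter on low counts, 3 with DESeq2, 3 with adjusted p-values, and 2 without the E13.5 and P13 libraries, a setting added after seeing the data. Leaving Gm26917 out of the table left 1 member between DIV28 and P21. Leaving out each library in turn gave 0 to 1 members from DIV7 to DIV28, 1 to 2 from DIV0 to DIV28, 1 to 2 between DIV28 and P21, and 1 to 6 in the difference of spans. The replicate block with TTX called 0 of 8 members, as without it, and changed no other call. Of mean shares, 13 of 77 moved by more than 1 SD when Gm26917 was left out of the total, 15 of 77 without mitochondrial genes too, and 88 of 88 as TPM, which is per length. With only peaks of a −log10 q of at least 2, Rian had a promoter peak in 14 libraries, Mirg in 15, Neat1 in 19 and Miat in 21. With a window wider than 1000 bases, Mirg had a peak in 22 libraries, Rian in 21 and Neat1 in 21. Their median fold enrichments were then 6.78, 2.87 and 4.80. With 2 or 3 libraries a group, changes under 2-fold were not called by the rule used, whatever their p. Neat1, with as few as 26 counts, is limited by depth, and so is Mirg at E10.5, with 94 to 131.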

Other observations

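Of 13 measured snoRNA hosts, 7 were called higher and 2 lower from E10.5 to E13.5, from Snhg14 (4.86), the host of the snoRNAs of the imprinted Prader-Willi region, to Snhg16 (-1.96), with a median log2 difference of 1.64 against 0.13 for all genes. At that step 24.6% of all genes were called higher and 19.4% lower. From E13.5 to P4, 1 host was higher, Snhg14 (3.62), and 3 were lower, with a median of -0.69 against 0.12. From P4 to P13, 5 were higher and none lower, led by Gas5 (2.34). Of all 15030 genes tested, 5.80% were called higher, and 1134 genes were called lower. From P13 to P21, 1 was higher and 3 were lower, down to Snhg1 (-2.26), where 7.30% of genes were called in either direction. From P4 to P21, which leaves P13 out of the comparison, none of the 13 was called by edgeR, where 5.85% of genes were called higher. Of the 13, 4 had an unadjusted edgeR p under 0.05 there. Of 18 other long noncoding genes measured, 8 were higher and 1 lower from E13.5 to P4, from A330008L17Rik (3.50) to H19 (-8.29), an imprinted RNA of fetal tissue, with a median of 1.27 against 0.12, where 23.8% of genes were called higher. Their median was -0.05 against 0.13 from E10.5 to E13.5, with 6 higher and 1 lower, and 0.00 against 0.05 from P4 to P13, with 2 higher. Cdr1os was the highest from E10.5 to E13.5 (7.27) and from DIV0 to DIV28 (4.0). Endothelial and erythroid markers were highest at E13.5, and their part in the value of H19 was not tested.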
